A study of Homo sapiens with 12 samples.

Results

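Transient receptor potential (TRP) channels are cation channels of the plasma membrane and of internal membranes, and most of them let calcium into the cell. The genes described here are 10 members of 3 subfamilies, taken by gene name from a table of 58302 genes: TRPM2, TRPM4, TRPM7 and TRPM8 of the melastatin subfamily, TRPV1, TRPV2, TRPV4 and TRPV6 of the vanilloid subfamily, and TRPC1 and TRPC6 of the canonical subfamily. All 10 were present in the table. They were followed by RNA-sequencing in 12 libraries, with 4 each of BPH-1, a benign prostate cell line, and of DU145 and PC3, which are prostate cancer (PCa) cell lines. The labels give every line the genotype WT and no treatment, and the lines shared 1 serum-supplemented culture medium. Each group is a single established line, so a difference between benign and PCa cells and a difference between lines cannot be told apart. The labels do not say that the libraries of a line came from separate cultures, so the p-values below measure only the spread between these libraries, which may be technical.

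TRP subunits assemble as tetramers around a pore and open on very different signals. TRPM2 is a calcium-permeable channel opened by ADP-ribose, TRPM4 is opened by intracellular calcium and carries sodium rather than calcium, and TRPM7 conducts magnesium and calcium and has a kinase domain on the same protein. TRPM8 is the cold and menthol receptor and is also known from prostate epithelium. TRPV1 answers to capsaicin and heat, TRPV4 to cell swelling and warmth, and TRPV6 is a highly calcium-selective channel of epithelia. TRPC1 and TRPC6 act downstream of phospholipase C, and TRPC6 is opened by diacylglycerol.

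The values were fragments per kilobase of exon scaled to library size (FPKM), which correct for gene length and library depth. The depth recovered from the steps between low values was 12950665 to 16309559 reads a library (median 15341001). Cell type marker genes were read beside the line labels. The basal genes separate BPH-1 from the PCa lines. No gene was listed to identify DU145 or PC3, so the labels of those lines were not checked. The summed FPKM of the basal markers TP63, KRT5 and KRT14 was 298 to 427 in BPH-1, at most 0.994 in DU145 and at most 0.0645 in PC3, and that of EPCAM, CDH1, KRT8 and KRT18 was 56.2 or more in every library. KRT8 and KRT18 carried this sum in the PCa lines: EPCAM was at 60.8 ± 2.28 FPKM in BPH-1, 0.376 ± 0.168 in DU145 and 9.10 ± 1.81 in PC3, and CDH1 at 28.4 ± 12.2, 0.180 ± 0.0936 and 0.786 ± 0.440. The luminal marker KLK3 (PSA) had 0 reads in all 12 libraries. Luminal markers summed to 2.72 to 8.66 FPKM, and the stromal and muscle list to 1.09 to 4.96, the immune list to 4.83 to 13.5, the endothelial list to 0.0548 to 2.28 and the neural list to 0.0751 to 1.38. CD68 carried most of the immune sum. PTPRC, also of the immune list, was at 1.35 ± 0.163 FPKM in BPH-1 and at 0 in PC3. In DU145 PTPRC ran from 0 to 1.35 FPKM, with reads in 2 libraries.

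The libraries differed in the level of genes poor in G and C, and this touches several TRP genes. Over the 2379 genes of lowest exon GC content (up to 41.9%), the median deviation from the mean of all libraries was 0.71 to 0.78 on the log2 scale in the 4 BPH-1 libraries. It was -0.65, -0.0010, -0.86 and -0.13 in DU145 replicates 1 to 4, and -0.11, -0.18, -0.46 and -0.73 in PC3 replicates 1 to 4. Every BPH-1 library therefore lay above every library of the other lines. TRPM7 (39.0% GC over its exons) and TRPC1 (40.0%) belong to these low-GC genes, TRPM8 (43.7%) and TRPC6 (44.0%) lie just above them, and TRPM2 (62.6%), TRPM4 (61.7%) and TRPV4 (61.5%) are among the GC-rich genes. The contrast is visible in the bases themselves. The sequences below are the middle 120 bases of the longest fully coding exon of 4 TRP genes, read in the gene's direction from GENCODE 29 transcripts on GRCh38. The first pair is from the low-GC members TRPM7 (exon 26 of 39, chr15:50592209-50592328, minus strand, 34.2% GC) and TRPC1 (exon 7 of 13, chr3:142784812-142784931, plus strand, 35.8% GC). The second pair is from the GC-rich members TRPM2 (exon 11 of 33, chr21:44391389-44391508, plus strand, 68.3% GC) and TRPM4 (exon 17 of 25, chr19:49196597-49196716, plus strand, 62.5% GC).
TRPM7: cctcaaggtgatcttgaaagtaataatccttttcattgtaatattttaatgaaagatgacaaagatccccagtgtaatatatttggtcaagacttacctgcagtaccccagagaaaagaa
TRPC1: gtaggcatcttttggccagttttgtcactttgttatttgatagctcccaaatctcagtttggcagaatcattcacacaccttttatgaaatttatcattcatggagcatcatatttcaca
TRPM2: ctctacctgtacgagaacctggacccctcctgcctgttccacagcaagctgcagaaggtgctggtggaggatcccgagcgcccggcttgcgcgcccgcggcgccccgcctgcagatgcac
TRPM4: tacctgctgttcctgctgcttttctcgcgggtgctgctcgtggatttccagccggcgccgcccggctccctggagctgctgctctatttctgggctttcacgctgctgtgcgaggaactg

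Of the 10 TRP genes, 6 had enough reads to be tested: TRPM2, TRPM4, TRPM7, TRPV1, TRPV4 and TRPC1. The filter asked for 15 reads over the libraries of a comparison and, in 4 of them, for a level worth 10 reads in a library of median depth, so it can be passed through the line in which a gene is high. TRPM8, TRPV2, TRPV6 and TRPC6 stayed under it in all 3 comparisons and are given by their values. The test was limma on log2(FPKM + 1), with Benjamini-Hochberg adjustment over every gene tested and a gene called at an adjusted p under 0.05. A fold change on this scale understates the change of low genes, so a ratio of mean FPKM or of reads is given with it for the called TRP genes. For most genes of the lists below no ratio is given, and the log2 fold change of low genes there understates their change. Less RNA per cell and fewer cells holding the RNA cannot be told apart in bulk libraries. In each of the 6 genes, DU145 replicates 1 and 3 lay both above or both below replicates 2 and 4. A DU145 mean, SD or p-value therefore joins unlike libraries.

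In PC3 against BPH-1, 5 TRP genes were called, beside 67.6% of the 16345 genes tested. TRPM2 and TRPM4 rose, beside 27.2% of all genes called higher in PC3, and TRPM7, TRPV4 and TRPC1 fell, beside 40.5% called lower. The same 5 genes had no overlap between the lines, beside 64.5% of all genes (25.8% higher and 38.7% lower). In DU145 against BPH-1, 4 TRP genes were called, beside 62.6% of 17070 genes: TRPM2 and TRPV1 rose (30.3% of all genes did) and TRPM7 and TRPV4 fell (32.3%). TRPM2 and TRPM7 alone among them had no overlap, beside 59.4% of all genes (28.8% higher and 30.6% lower). In the direct comparison of PC3 with DU145, 3 were called beside 48.2% of 16210 genes: TRPM4 was higher in PC3 (20% of all genes) and TRPV1 and TRPV4 were lower (28.3%). TRPM4 and TRPV4 had no overlap there, beside 46.5% of all genes (19.1% higher and 27.4% lower). The comparisons with BPH-1 share the BPH-1 libraries and are set side by side without an overlap test. The median log2 fold change of all genes tested was -0.13 in PC3 against BPH-1, -0.03 in DU145 against BPH-1 and -0.05 in PC3 against DU145. Scaling moved this median: upper-quartile scaling put it at 0.09 and 0.13 in PC3 and DU145 against BPH-1, and scaling to the same summed FPKM put it at -0.28 and -0.16. Upper-quartile scaling also moved the share of calls that were higher in PC3 than in BPH-1 from 40.2% to 54.7%. None of the called TRP genes turned direction under either scaling. Upper-quartile scaling lost the calls of TRPV4 in DU145 against BPH-1 (limma adjusted p = 0.162) and of TRPV1 in PC3 against DU145 (limma adjusted p = 0.0555).

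**Figure D1:**
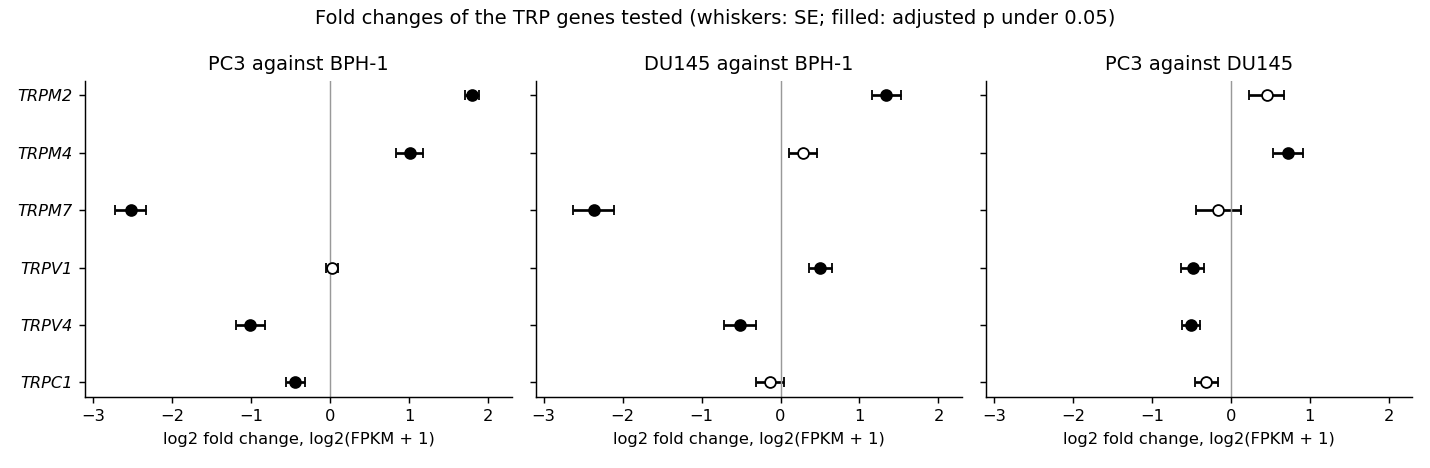
Log2 fold change of the 6 TRP genes tested, on the log2(FPKM + 1) scale, in the 3 comparisons of lines. Points are limma estimates from 4 libraries a line, whiskers are standard errors, and filled points have an adjusted p under 0.05. TRPM2 lies to the right and TRPM7 to the left of 0 against BPH-1 in both PCa lines.

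The makeup of the TRP signal differed between the benign line and the PCa lines. TRPM7 took 65.3% ± 9.22 (SD, n = 4) of the summed FPKM of the 10 genes in BPH-1, 13.8% ± 11.3 in DU145 and 8.49% ± 5.77 in PC3. TRPM4 took 10.2% ± 2.88 in BPH-1, 25.3% ± 4.24 in DU145 and 45.1% ± 7.19 in PC3, and TRPM2 took 0.0377% ± 0.0256, 22.0% ± 8.51 and 30.8% ± 5.86. The sum itself was 13.0 ± 1.33 FPKM in BPH-1, 7.20 ± 0.891 in DU145 and 8.17 ± 0.568 in PC3 (SD, n = 4 each). Shares sum to a whole, so a lower TRPM7 raises the share of every other gene.

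**Figure D2:**
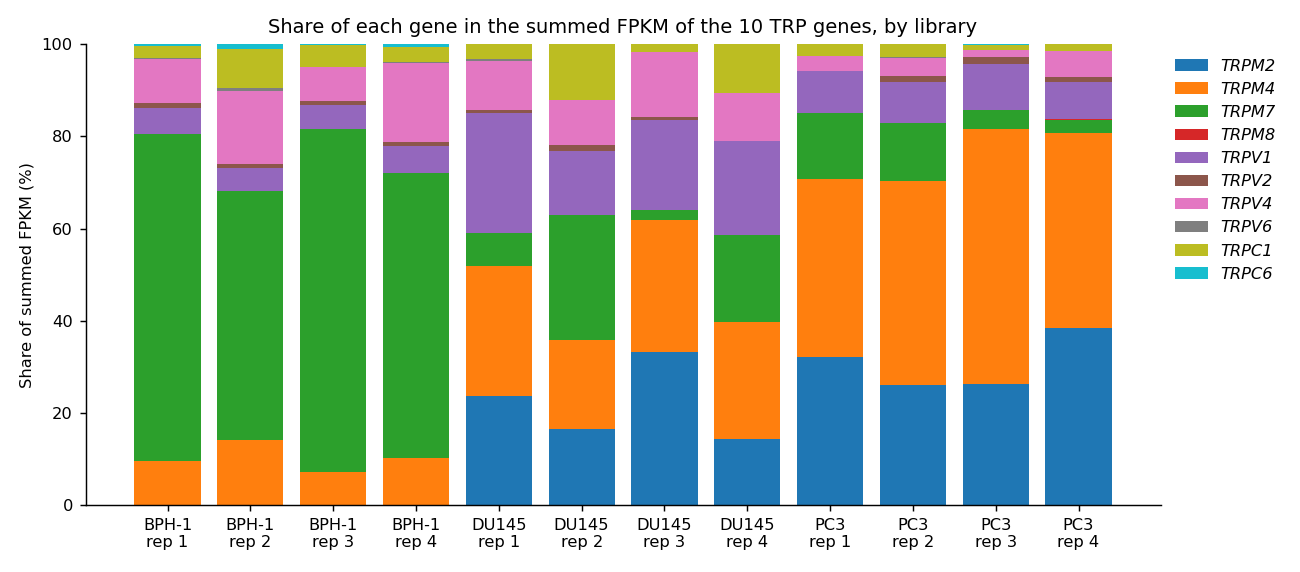
Share of each TRP gene in the summed FPKM of the 10 genes (y axis, percent) in each of the 12 libraries. TRPM7 holds 54.0% to 74.4% in the BPH-1 libraries and 2.16% to 26.9% in DU145, while TRPM2 and TRPM4 fill most of the PC3 bars.

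TRPM7, at chr15:50552473-50686815 on the minus strand (GRCh38), was the highest of the 10 genes in BPH-1 and fell furthest of those tested in both PCa lines. Its FPKM was 8.96, 6.82, 8.89 and 9.26 in BPH-1 replicates 1 to 4. It was 0.509, 1.70, 0.182 and 1.31 in DU145 and 1.10, 1.01, 0.378 and 0.231 in PC3. All BPH-1 libraries lay above all libraries of the PCa lines, and the PCa lines overlapped with a spread that was wide against their means. Against BPH-1 the mean was 12.5-fold lower in PC3 (log2 fold change -2.53, SE 0.20, limma adjusted p = 4.18e-06) and 9.17-fold lower in DU145 (log2 fold change -2.37, SE 0.26, limma adjusted p = 3.78e-05). PC3 and DU145 were not told apart (log2 fold change -0.16, SE 0.28, limma adjusted p = 0.674).

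TRPM7 moved with the level of low-GC genes. Within DU145 the libraries ran in the order of replicates 2, 4, 1 and 3 from high to low on both measures, and within PC3 in the order 1, 2, 3 and 4 on both. The low-GC genes as a whole had a median log2 fold change of -1.10 in PC3 and -1.13 in DU145 against BPH-1, where the 2379 genes of highest GC content had 0.33 and 0.40. With each library's trend of log2 FPKM on GC content divided out, the log2 fold change of TRPM7 was -1.38 in PC3 (limma adjusted p = 2.40e-05) and -1.11 in DU145 (limma adjusted p = 0.000272). TRPM7 thus stayed past the threshold in both PCa lines at a smaller fold change. The part of GC content in the remainder was not tested.

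**Figure D3:**
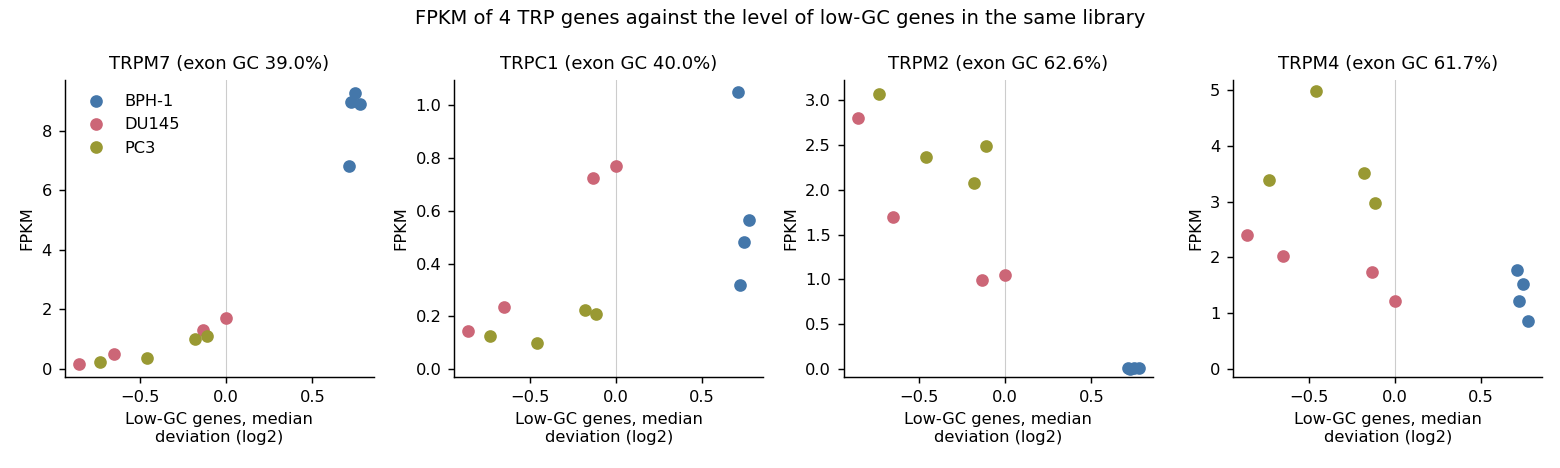
FPKM of TRPM7, TRPC1, TRPM2 and TRPM4 (y axes, each on its own scale) against the median log2 deviation of the 2379 low-GC genes in the same library (x axis), with 1 point a library coloured by line. BPH-1 libraries sit at 0.71 to 0.78 on the x axis in every panel, and within DU145 and within PC3 TRPM7 is lower the farther left a library lies.

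TRPC1 (chr3:142724074-142807888, plus strand), a subunit of channels activated through phospholipase C, is the other low-GC member. Its FPKM was 0.320, 1.05, 0.564 and 0.482 in BPH-1 replicates 1 to 4, 0.236, 0.771, 0.144 and 0.726 in DU145, and 0.209, 0.225, 0.0977 and 0.124 in PC3. PC3 lay below BPH-1 in every library, while DU145 was split into a low pair and a high pair inside the BPH-1 range. In PC3 against BPH-1 the mean was 3.68-fold lower (log2 fold change -0.44, SE 0.12, limma adjusted p = 0.00825). This call was lost with the GC trend divided out (log2 fold change -0.06, limma adjusted p = 0.622), the only one of its 20 alternatives to do so, with adjusted p from 0.00332 to 0.622. In DU145 against BPH-1 TRPC1 was not called (log2 fold change -0.13, SE 0.17, limma adjusted p = 0.521) and its direction turned with the GC trend divided out (0.38, limma adjusted p = 0.00750). PC3 against DU145 was not called (log2 fold change -0.31, SE 0.14, limma adjusted p = 0.104, with p from 0.000941 to 0.234 over 20 alternatives), and it was past the threshold without DU145 replicate 3 (-0.42, limma adjusted p = 0.0228), with the GC trend divided out (-0.29, limma adjusted p = 0.000941) and without the libraries lowest in low-GC genes, DU145 replicates 1 and 3 and PC3 replicate 4 (-0.57, limma adjusted p = 0.00117). The low DU145 pair, replicates 1 and 3, are the DU145 libraries with the lowest level of low-GC genes, and the part of this in the result was not tested.

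TRPM2 (chr21:44350163-44443081, plus strand) was nearly absent from BPH-1 and was the second-highest of the 10 genes in both PCa lines. BPH-1 held 0, 1, 1 and 1 reads of it, or 0, 0.00665, 0.00655 and 0.00651 FPKM. DU145 had 1.70, 1.05, 2.81 and 0.992 FPKM and PC3 had 2.49, 2.08, 2.37 and 3.08. Every library of the PCa lines lay far above every BPH-1 library. Summed over a line, TRPM2 had 1312 reads in PC3 and 996 in DU145 against 3 in BPH-1, a ratio per read sequenced of 505 for PC3 (95% exact interval 173 to 2454) and 334 for DU145 (114 to 1624). These intervals cover counting error only. TRPM2 is a gene that passed the filter against BPH-1 only through the PCa lines. When the filter was made stricter, TRPM2 was no longer tested in either comparison with BPH-1, and 5 TRP genes remained. The limma p-values of TRPM2 against BPH-1 therefore rest on BPH-1 values at or near 0, and the separation is better read from the reads. The limma log2 fold change was 1.79 in PC3 (SE 0.093, adjusted p = 3.35e-07) and 1.34 in DU145 (SE 0.18, adjusted p = 0.000142), held small by the pseudocount of 1 FPKM. With a pseudocount of 0.1, the log2 fold changes were 4.62 and 3.93. With the GC trend divided out and a pseudocount of 1, they were 1.61 in PC3 and 1.15 in DU145.

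PC3 and DU145 were not told apart on TRPM2 (log2 fold change 0.45, SE 0.22, limma adjusted p = 0.126), but 4 of 20 alternatives called PC3 higher. These were the fit without DU145 replicate 3 (log2 fold change 0.65, limma adjusted p = 0.0145), the GC trend divided out (0.51, limma adjusted p = 0.0111), 1 fit over all 3 lines (0.45, limma adjusted p = 0.0467) and the fit without the 3 libraries lowest in low-GC genes (0.71, limma adjusted p = 0.00353). Over all 20 the adjusted p ran up to 0.278. TRPM2-AS, an RNA gene on the opposite strand that overlaps 10685 bases of the TRPM2 locus but none of its exons, followed the same order of lines. It was listed at 0 in all BPH-1 libraries, at 0.348 to 0.613 FPKM in DU145 and at 1.82 to 2.60 in PC3. Whether the counting used strand is not given in the sources used here. A pair of RF00285 RNA genes that lie in TRPM2 exons on the same strand held at most 1 read a library, and they can share reads with TRPM2.

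TRPM4 (chr19:49157741-49211836, plus strand), the calcium-activated sodium channel, was highest in PC3. Its FPKM was 2.98, 3.51, 4.98 and 3.38 in PC3 replicates 1 to 4, 1.21, 1.78, 0.854 and 1.52 in BPH-1 and 2.02, 1.22, 2.41 and 1.74 in DU145. All PC3 libraries lay above all others, and BPH-1 and DU145 overlapped. PC3 was 2.77-fold above BPH-1 (log2 fold change 1.01, SE 0.17, limma adjusted p = 0.000573) and 2.01-fold above DU145 (log2 fold change 0.73, SE 0.19, limma adjusted p = 0.0117). DU145 against BPH-1 was not called (log2 fold change 0.28, SE 0.18, limma adjusted p = 0.196), and this small difference turned to -0.08 with the GC trend divided out. The rise of TRPM4 in PC3 was then 0.68 against BPH-1 (limma adjusted p = 0.00380) and 0.80 against DU145 (limma adjusted p = 0.00103).

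**Figure D4:**
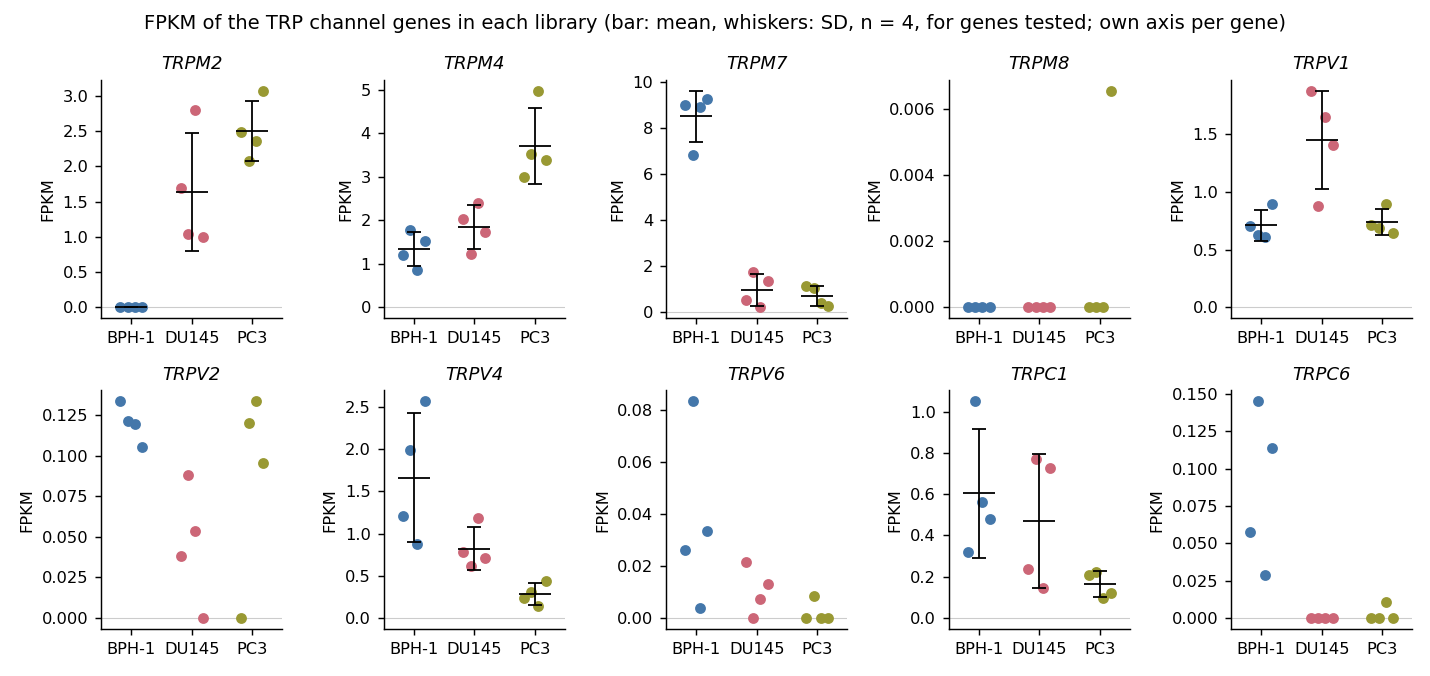
FPKM of the 10 TRP genes (y axis, a separate scale for each gene) in the 4 libraries of BPH-1, DU145 and PC3. Points are libraries, and bars and whiskers are the mean and SD of 4 libraries for the 6 genes tested. TRPM2 and TRPM7 separate BPH-1 from both PCa lines, TRPM4 and TRPV4 separate PC3 from both other lines, and TRPM8 has a single read in all.

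TRPV4 (chr12:109783085-109833401, minus strand), the osmotically gated member, was lowest in PC3. Its FPKM was 0.240, 0.310, 0.141 and 0.442 in PC3 replicates 1 to 4, 1.21, 1.99, 0.874 and 2.57 in BPH-1 and 0.777, 0.611, 1.19 and 0.707 in DU145. PC3 lay below both other lines without overlap, and the highest DU145 library lay within the BPH-1 range. PC3 was 5.86-fold below BPH-1 (log2 fold change -1.01, SE 0.19, limma adjusted p = 0.00101) and 2.90-fold below DU145 (log2 fold change -0.50, SE 0.11, limma adjusted p = 0.00540). DU145 was 2.02-fold below BPH-1 at the edge of the threshold (log2 fold change -0.51, SE 0.20, limma adjusted p = 0.0497). That call was lost under 13 of 20 alternatives, with p from 0.00313 to 0.162, and an exact two-sided permutation test over the libraries gave p = 0.0571. Among these are the fits without BPH-1 replicate 1, 2 or 4 (limma adjusted p = 0.0521, 0.120 and 0.130) and without DU145 replicate 1, 2 or 4 (0.0966, 0.105 and 0.0992). With the GC trend divided out, the DU145 call was kept at a larger log2 fold change (-0.82, limma adjusted p = 0.00313). PC3 against BPH-1 was then -1.21 (limma adjusted p = 0.000215).

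TRPV1 (chr17:3565444-3609411, minus strand), the capsaicin receptor, was the member in which DU145 stood above both other lines. DU145 replicates 1 to 4 had 1.87, 0.878, 1.65 and 1.40 FPKM. BPH-1 had 0.704, 0.628, 0.610 and 0.895 and PC3 had 0.713, 0.691, 0.899 and 0.642. Of the DU145 libraries, 3 lay above every other library, and replicate 2 lay inside the ranges of both other lines. DU145 was 2.04-fold above BPH-1 (log2 fold change 0.50, SE 0.14, limma adjusted p = 0.0113) and PC3 was 1.97-fold below DU145 (log2 fold change -0.48, SE 0.15, limma adjusted p = 0.0218). Exact two-sided permutation tests over the libraries gave p = 0.0571 for both, where the smallest p that 4 against 4 libraries allow is 0.0286. With the GC trend divided out, DU145 against BPH-1 had a log2 fold change of 0.23 (limma adjusted p = 0.0684, with p from 0.00155 to 0.0697 over its alternatives). In PC3 against DU145 the call was lost under 7 of 20 alternatives (p from 0.00353 to 0.140), among them the fits without DU145 replicate 1 (limma adjusted p = 0.0566) and without PC3 replicate 1, 2 or 4 (0.0554, 0.0607 and 0.0523).

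PC3 against BPH-1 was close to 0 for TRPV1 (log2 fold change 0.02, SE 0.080, limma adjusted p = 0.810), and it was -0.09 when every library was scaled to the same summed FPKM. SHPK, the gene next to TRPV1, overlaps 1150 bases of it on the same strand, with exons of both genes in the overlap. SHPK stood at 7.68 to 10.3 FPKM in BPH-1, 2.64 to 4.31 in DU145 and 6.76 to 7.32 in PC3, so it was low where TRPV1 was high. Reads in the shared bases cannot be assigned to either gene with certainty.

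Among the 4 members under the filter, TRPM8 (chr2:233917398-234019522, plus strand) had 1 read, in PC3 replicate 4, and 0 reads in the other 11 libraries. A count of 0 allows up to 3 reads, or 0.0156 to 0.0196 FPKM in these libraries. Expression of TRPM8 was therefore not detectable at this depth.

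TRPC6 (chr11:101451564-101872562, minus strand) was detected mainly in BPH-1, with 6, 15, 3 and 12 reads (0.0575, 0.145, 0.0285 and 0.114 FPKM). DU145 had 0 reads in all 4 libraries and PC3 had 1 read, in replicate 3. Per read sequenced, BPH-1 was 31.1-fold above PC3 (95% exact interval 5.25 to 1264) and at least 11.9-fold above DU145, taking 3 reads over the 4 DU145 libraries as the limit of a count of 0. TRPV6 (chr7:142871203-142885762, minus strand) had 7, 22, 1 and 9 reads in BPH-1, 6, 0, 2 and 3 in DU145 and 0, 2, 0 and 0 in PC3. Summed over the libraries it was 16.9-fold higher in BPH-1 than in PC3 (95% exact interval 4.37 to 144) and 3.52-fold higher than in DU145 (1.77 to 7.62), but BPH-1 replicate 2 gave 22 of the 39 reads and the lines overlapped. The intervals of TRPC6 and TRPV6 pool the reads of a line and cover counting error only. TRPV6 has a close paralogue next to it, TRPV5, which had 0 reads in all 12 libraries.

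TRPV2 (chr17:16415542-16437003, plus strand) was low in every line. It had 10, 9, 9 and 8 reads in BPH-1, 3, 7, 4 and 0 in DU145 and 0, 8, 9 and 6 in PC3. BPH-1 was 2.55-fold above DU145 per read sequenced (95% exact interval 1.34 to 5.12), with every BPH-1 library above every DU145 library. The ratio of BPH-1 to PC3 was 1.35 (0.781 to 2.39), an interval that includes equal levels. Both intervals pool the reads of a line and cover counting error only, not the spread between libraries.

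The order of the 10 genes by mean FPKM changed between the lines. In BPH-1 it was TRPM7 at 8.48, TRPV4 at 1.66, TRPM4 at 1.34, TRPV1 at 0.709 and TRPC1 at 0.604, with TRPV2 at 0.120 and the other 4 genes below. Neighbours in this order overlapped except that TRPM7 stood clear of TRPV4, and TRPC1 of TRPV2. In DU145 it was TRPM4 at 1.85, TRPM2 at 1.64, TRPV1 at 1.45, TRPM7 at 0.925, TRPV4 at 0.820 and TRPC1 at 0.469. Neighbours among these 6 overlapped, and TRPC1 stood clear of TRPV2, the next gene. In PC3 it was TRPM4 at 3.71, TRPM2 at 2.50, TRPV1 at 0.736, TRPM7 at 0.679, TRPV4 at 0.283 and TRPC1 at 0.164. TRPM2 in PC3 stood clear of TRPV1, and the other neighbours overlapped. The deposited FPKM divides by a length in which exons that differ between transcripts are counted separately, such as 9842 bases for TRPM2 where its merged exons span 6705, so the order depends on the annotated transcripts.

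Of the other human TRP genes, a list of 17, few had enough reads to be tested. In PC3 against BPH-1, 1 of 6 tested rose and 3 fell, beside 67.6% of all genes called (median log2 fold change -0.24, against -0.13 over all genes). In DU145 against BPH-1, 2 of 7 rose and 2 fell, beside 62.6% of all genes (median -0.16, against -0.03). MCOLN1, the lysosomal calcium channel mucolipin 1, was the highest of them in the PCa lines, at 9.86 ± 1.99 FPKM in PC3 and 6.38 ± 2.08 in DU145 against 2.27 ± 0.162 in BPH-1 (SD, n = 4). Its log2 fold change was 1.72 in PC3 (SE 0.14, limma adjusted p = 5.29e-06) and 1.14 in DU145 (SE 0.20, limma adjusted p = 0.000796). With the GC trend divided out these were 1.33 and 0.67, both still called.

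MCOLN3, another mucolipin, fell in PC3 to 0.00942 ± 0.0121 FPKM from 0.588 ± 0.176 in BPH-1 (log2 fold change -0.65, limma adjusted p = 5.20e-05) and was also below DU145 (log2 fold change -0.48, limma adjusted p = 0.0336). PKD2, polycystin 2, fell in PC3 (log2 fold change -0.47, limma adjusted p = 0.0404), a call lost with the GC trend divided out (-0.19, limma adjusted p = 0.262) and without BPH-1 replicate 1, 2 or 4 or PC3 replicate 3 or 4 (limma adjusted p = 0.0705 to 0.102). In DU145, MCOLN2 rose (log2 fold change 0.43, limma adjusted p = 0.0219), and TRPA1, the irritant receptor, fell from 92 reads in the BPH-1 libraries to 1 (log2 fold change -0.27, limma adjusted p = 0.00124). TRPA1 also had 1 read in PC3 and fell there against BPH-1 (-0.27, limma adjusted p = 0.000989). TRPA1 and, in the comparisons with PC3, MCOLN3 passed the filter only through the line where they were high. Their limma p-values therefore rest on values at or near 0 in the other line. TRPV3, a heat-gated channel of keratinocytes, fell in DU145 (log2 fold change -0.27, limma adjusted p = 0.0209). The mean of TRPV3 was 2.33-fold lower there, while the same log2 value of TRPA1 stood for 79.7-fold, a ratio that rests on 1 read. The call of MCOLN2 was lost without BPH-1 replicate 1, 3 or 4 or DU145 replicate 4 (limma adjusted p = 0.0513 to 0.0644), and that of TRPV3 without BPH-1 replicate 4 or DU145 replicate 3 (0.0520 for both). Without BPH-1 replicate 4, 2 genes of the list were called in place of 4. TRPV5, TRPC5 and TRPC7 had 0 reads in all 12 libraries. In PC3 against DU145, MCOLN3 was the only call among 5 tested, beside 48.2% of all genes (median -0.16, against -0.05), and its call was lost without DU145 replicate 2 or 4 or any single PC3 library (limma adjusted p = 0.0631 to 0.0800). Without DU145 replicate 3, 2 of the list were called.

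Store-operated calcium entry is the other main calcium route of epithelial cells: phospholipase C makes inositol trisphosphate, its receptors (ITPR) empty the endoplasmic reticulum, and STIM sensors then open ORAI channels. Of the 11 genes listed for this route, 5 rose and 1 fell of 10 tested in PC3 against BPH-1, beside 67.6% of all genes called, 27.2% higher and 40.5% lower (median log2 fold change 0.27, against -0.13 over all genes). ORAI1, the pore subunit, stood at 30.4 ± 5.19 FPKM in PC3, 15.6 ± 4.61 in DU145 and 9.26 ± 1.11 in BPH-1 (SD, n = 4). It rose in PC3 against BPH-1 (log2 fold change 1.61, SE 0.14, limma adjusted p = 7.44e-06) and against DU145 (0.94, SE 0.21, limma adjusted p = 0.00500). Its rise in DU145 against BPH-1 (0.66, SE 0.21, limma adjusted p = 0.0177) was 0.09 with the GC trend divided out (limma adjusted p = 0.527) and was lost without DU145 replicate 1 (limma adjusted p = 0.0514).

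The inositol trisphosphate receptors ITPR1 and ITPR2 parted, while ITPR3 was far higher than either in every line. ITPR3 stood at 43.2 ± 2.57 FPKM in BPH-1, 45.6 ± 10.6 in DU145 and 59.5 ± 4.65 in PC3. It was called higher in PC3 than in BPH-1 (log2 fold change 0.45, limma adjusted p = 0.00226). In DU145 against BPH-1 it was not called (log2 fold change 0.05, limma adjusted p = 0.835). ITPR1 rose in PC3 from 0.492 ± 0.217 to 4.58 ± 1.95 FPKM (log2 fold change 1.84, limma adjusted p = 0.000189). ITPR2 fell from 2.52 ± 0.253 FPKM in BPH-1 to 0.485 ± 0.295 in PC3 (log2 fold change -1.27, limma adjusted p = 5.52e-05) and to 0.398 ± 0.342 in DU145 (log2 fold change -1.36, limma adjusted p = 9.37e-05). In DU145 against BPH-1, 2 of the 11 genes rose and 2 fell, beside 62.6% of all genes called (median 0.06, against -0.03). The sensor STIM1 rose (log2 fold change 0.73, limma adjusted p = 0.00764) and STIM2 fell (-0.82, limma adjusted p = 0.0208). The call of STIM2 was lost without BPH-1 replicate 3 or 4 or DU145 replicate 1 or 3 (limma adjusted p = 0.0523 to 0.0617). With the GC trend divided out, 7 of the 11 were called. The rise of STIM1 there was 0.34 with the GC trend divided out (limma adjusted p = 0.101). In PC3 against DU145, 3 rose and 1 fell of 11, beside 48.2% of all genes called (median 0.29, against -0.05), with the phospholipase PLCG1 higher (0.73, limma adjusted p = 0.00395) and STIM1 lower (-0.90, limma adjusted p = 0.00169).

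Calcium is removed from the cytosol by pumps and exchangers and is held by buffer proteins. Of the 11 such genes listed, 1 rose and 5 fell of 8 tested in PC3 against BPH-1, beside 67.6% of all genes called and 40.5% lower (median log2 fold change -0.41, against -0.13 over all genes). In DU145 against BPH-1, 2 rose and 6 fell of 9, beside 62.6% of all genes called and 32.3% lower (median -0.90, against -0.03). With the GC trend divided out, 4 and 8 were called. The plasma membrane pump ATP2B1 fell from 7.04 ± 1.57 FPKM in BPH-1 to 2.02 ± 1.29 in PC3 (log2 fold change -1.49, limma adjusted p = 0.00164) and to 0.609 ± 0.449 in DU145 (-2.34, limma adjusted p = 2.37e-05). With the GC trend divided out, ATP2B1 was 0.17 in PC3 (limma adjusted p = 0.362) and -0.97 in DU145 (limma adjusted p = 0.000645). The Golgi pump ATP2C1 fell in both (-1.35 and -1.62, limma adjusted p = 0.000141 and 0.00264), and these were -0.30 and -0.49 with the GC trend divided out.

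The buffers calbindin and calretinin took opposite lines. CALB1 stood at 8.12 ± 2.92 FPKM in PC3, 1.90 ± 1.21 in BPH-1 and 0.00885 ± 0.00387 in DU145, and was higher in PC3 than in BPH-1 (log2 fold change 1.67, limma adjusted p = 0.000785) and than in DU145 (3.12, limma adjusted p = 6.34e-06). CALB2 was at 2.05 ± 0.846 FPKM in DU145 and at 0.146 ± 0.187 in BPH-1 (log2 fold change 1.38, limma adjusted p = 0.000222), and lower in PC3 than in DU145 (-1.54, limma adjusted p = 0.000138). CALB1 in PC3 against DU145 and CALB2 in both comparisons passed the filter only through the higher line. Those p-values rest on low values, at or near 0, in the other line. The reticulum pump ATP2A3 rose in DU145 against BPH-1 (1.37, limma adjusted p = 0.000107) and was lower in PC3 than in DU145 (-1.36, limma adjusted p = 0.000115). Of 8 tested in PC3 against DU145, 1 was higher and 2 were lower, beside 48.2% of all genes called (median 0.32, against -0.05). S100G, the calcium buffer paired with TRPV6 in the intestine, had 0 reads in all 12 libraries.

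**Figure D5:**
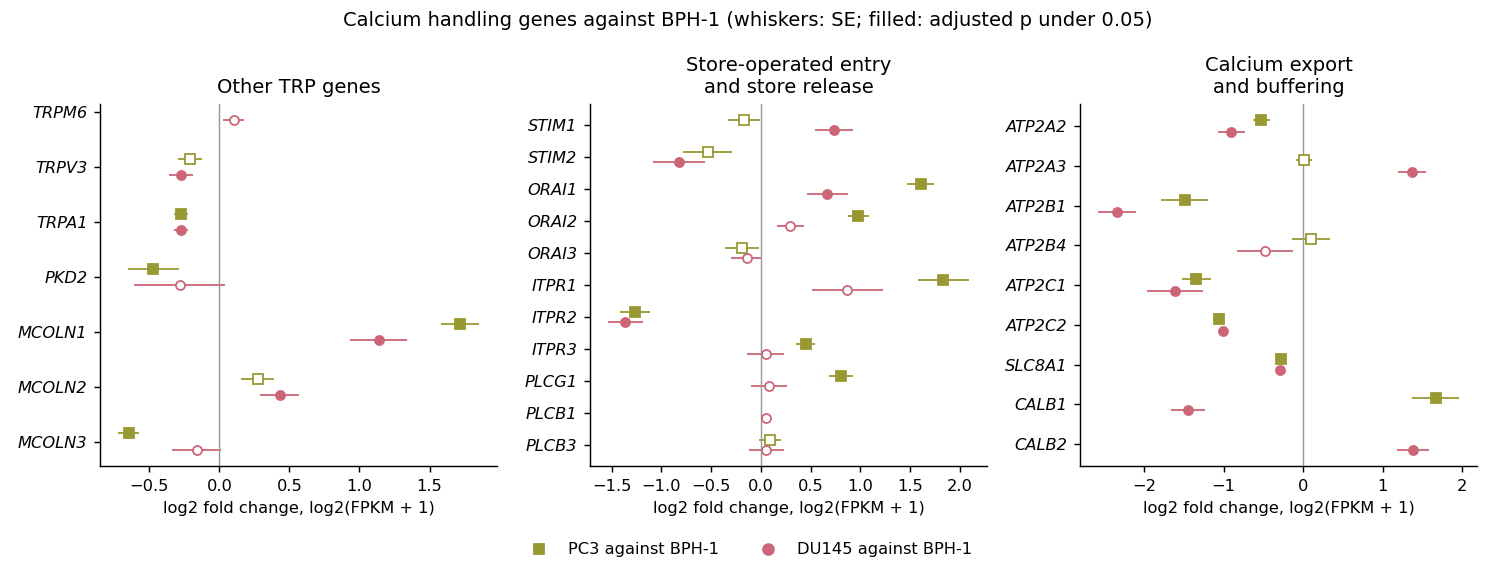
Log2 fold change against BPH-1, on the log2(FPKM + 1) scale, of the other TRP genes (left), store-operated entry genes (middle) and calcium export and buffering genes (right) that were tested, for PC3 (squares) and DU145 (circles). Whiskers are standard errors and filled symbols have an adjusted p under 0.05. MCOLN1, ORAI1 and ITPR1 lie farthest right for PC3 in the first 2 panels, and ATP2B1 lies farthest left for DU145.

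A last list held 11 genes tied to single TRP channels. For TRPM2, whose ligand is formed through poly(ADP-ribose) polymerase and degraded by NUDT9, PARP1 rose in PC3 (log2 fold change 0.97, SE 0.10, limma adjusted p = 2.73e-05), from 53.5 ± 1.76 to 107 ± 12.2 FPKM, and in DU145 to 104 ± 11.2 (0.94, SE 0.14, limma adjusted p = 0.000225). NUDT9 fell in PC3 (-0.96, limma adjusted p = 0.00113) and in DU145 (-0.63, limma adjusted p = 0.0432), the latter lost without BPH-1 replicate 1, 2 or 3 or DU145 replicate 1 or 3 (limma adjusted p = 0.0819 to 0.123). For TRPV6, a target of vitamin D, the vitamin D hydroxylase CYP24A1 stood at 31.4 ± 9.28 FPKM in DU145, 8.80 ± 3.26 in BPH-1 and 0 in all PC3 libraries. It rose in DU145 (1.74, limma adjusted p = 0.000626) and was called lower in PC3 against BPH-1 (limma adjusted p = 2.53e-06) and against DU145 (limma adjusted p = 4.45e-07). In the comparisons with PC3, CYP24A1 passed the filter only through the other line, so those p-values rest on PC3 values of 0. TRPV6 itself, at 11 reads in DU145 and 39 in BPH-1, was not highest where CYP24A1 was.

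PKD1, the partner of PKD2, stood at 7.31 ± 1.07 FPKM in DU145, at 1.76 ± 0.237 in BPH-1 and at 1.89 ± 0.175 in PC3. It rose in DU145 against BPH-1 (log2 fold change 1.59, limma adjusted p = 2.02e-05) and was lower in PC3 than in DU145 (-1.52, limma adjusted p = 3.48e-05). ABCC9, a relative of the sulfonylurea receptor that pairs with TRPM4, fell from 0.281 ± 0.114 FPKM in BPH-1 to 0.00298 ± 0.00596 in DU145 (-0.35, limma adjusted p = 0.000682) and to 0.0105 ± 0.00319 in PC3 (-0.34, limma adjusted p = 0.000706). ABCC9 passed the filter only through BPH-1, so both p-values rest on values at or near 0 in the PCa lines. Of this list 2 rose and 3 fell of 9 tested in PC3 against BPH-1, beside 67.6% of all genes called (median 0.05, against -0.13 over all genes). In DU145 against BPH-1, 5 rose and 2 fell of 8, beside 62.6% (median 0.72, against -0.03). In PC3 against DU145, 1 was higher and 4 were lower of 8, beside 48.2% (median -0.40, against -0.05). Without PC3 replicate 1, 2 or 3 or DU145 replicate 4, 3 of the 8 were called there.

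The genes whose FPKM most resembled that of a TRP gene over the 12 libraries were found among 10500 protein-coding genes. The points share their line and their GC balance, so the values are a description. TRPM7 was most like ZNF148, SMARCAD1 and SENP6 (Pearson r = 0.998 for each), which have exon GC contents of 40.2%, 36.7% and 39.8%, and 818 genes had an r over 0.95 with it. TRPM2 was most like COX6C (r = 0.994) and PSMD9 (r = 0.993), with 223 genes over 0.95. TRPM4 was most like OSBPL7, CRELD1 and LRP10 (r from 0.969 to 0.974, with 28 genes over 0.95).

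The promoters of the members also differ in base composition. RefSeq promoter sequences (GRCh38.p14) matched 8 of the 10 genes, without TRPV2 and TRPV4. In the 190 bases from 250 to 61 before the RefSeq start, TRPM7, the highest gene in BPH-1, held 23 CpG dinucleotides, more than 88.9% of 35116 promoters (median 7). TRPM4 held 13, TRPC1 9, TRPM2 5, TRPV1, TRPV6 and TRPC6 3 each, and TRPM8 2. The GC box GGGCGG, searched on both strands, was in 33.0% of all promoters and among the 8 genes was found in TRPM4 only. The motif CCAAT was in 25.8% of all promoters and among the 8 was found in TRPV6 only. A match is a description of the letters and not a binding site. The 4 windows below show the span of CpG content, from TRPM7 and TRPM4, with the most, to TRPV1 and TRPM8, with few. TRPV1 was expressed in all 3 lines, and TRPC6, with the same 3 CpG, was at or near 0 in the PCa lines. A relation of CpG content to level was not tested. The windows of TRPV1, TRPC6 and TRPM2 lie inside the annotated locus, so the level of these genes can include transcripts from other starts. The windows lie at chr15:50686858-50687047 (TRPM7, minus strand), chr19:49157542-49157731 (TRPM4, plus strand), chr17:3597103-3597292 (TRPV1, minus strand) and chr2:233917123-233917312 (TRPM8, plus strand), and capitals mark the GC box on its reverse strand.
TRPM7: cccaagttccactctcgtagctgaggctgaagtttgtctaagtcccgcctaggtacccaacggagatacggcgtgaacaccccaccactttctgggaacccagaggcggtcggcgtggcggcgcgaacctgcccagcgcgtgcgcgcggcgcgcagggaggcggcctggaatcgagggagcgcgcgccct
TRPM4: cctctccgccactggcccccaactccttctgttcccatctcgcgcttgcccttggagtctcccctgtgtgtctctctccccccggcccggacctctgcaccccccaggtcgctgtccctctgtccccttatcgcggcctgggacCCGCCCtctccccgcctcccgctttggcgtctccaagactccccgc
TRPV1: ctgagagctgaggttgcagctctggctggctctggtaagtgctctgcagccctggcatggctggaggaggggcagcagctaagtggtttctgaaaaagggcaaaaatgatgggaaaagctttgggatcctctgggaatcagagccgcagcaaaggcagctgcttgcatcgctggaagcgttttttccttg
TRPM8: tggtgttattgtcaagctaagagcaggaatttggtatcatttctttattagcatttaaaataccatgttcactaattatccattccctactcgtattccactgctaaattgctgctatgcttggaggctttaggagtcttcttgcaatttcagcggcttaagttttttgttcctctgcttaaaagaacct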

How the data were processed

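RNA-sequencing libraries of BPH-1, DU145 and PC3 (4 each) were compared. The table the authors deposited holds FPKM-like values for 58302 genes, of which 56610 have GRCh38 coordinates equal to those of GENCODE 29. Its header names no unit, and the deposited values are written FPKM here. The submitters' processing notes name CASAVA 1.8, HISAT2 2.1.0, edgeR and GRCh38 (hg38). The counting program, the annotation and the use of strand are not given in the sources used here. Every column matched a library by name, and 0 columns were left out.

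Depth was found from the steps between low values. Dividing by the summed length of all distinct exons made 91.8% to 93.3% of a library's values under 30 reads whole (within 0.01 read). For 263 genes there was no length, and they were not tested. The lengths of TRPM7 (16017) and TRPV1 (8661) were taken from the steps, which sets their reads and not their FPKM. Reads served the filter, the ratios of low genes and voom, and a count of 0 was taken to allow 3 reads. Replicate libraries differed by more than sampling noise (chi-square per degree of freedom 21.2 or more in every pair). DU145 replicates 1 and 3 had 47.7 and replicates 2 and 4 had 29.4, while pairs across these sets had 133 to 273. Pairs with PC3 replicate 4 had 73.1 to 108, and the other PC3 pairs had 21.2 to 44.2.

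limma 3.58.1 (R 4.3.3, intensity trend) was fitted to log2(FPKM + 1) with the libraries of the lines compared. Tests were two-sided. Alternatives were other filters, a pseudocount of 0.1, other scalings, a joint fit, a replicate block, voom, exact permutation tests, leaving out each library, and division by each library's GC trend (a spline with 5 degrees of freedom). Leaving out the libraries lowest in low-GC genes (DU145 replicates 1 and 3 and PC3 replicate 4) was added after seeing the data. On simulated data the depth search, the limma test and the GC correction were tested before use. The TRP genes and the gene lists were chosen with earlier results of these data known. All 10 TRP genes are named, and of each list the genes with the 2 largest rises and 2 largest falls past the threshold in a comparison and those with 0 reads in all libraries. ITPR3 was added beside ITPR1 and ITPR2. Genes named for likeness are the 3 with the highest Pearson r to each of the 3 TRP genes with the highest mean. Of the genes these rules name, 2 are not reported here. Promoters are RefSeq's (GRCh38.p14). Python 3.11.15 with numpy 2.4.6, pandas 2.3.3, scipy 1.17.1 and matplotlib 3.10.9 was used.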

Additional observations from a re-analysis of the deposited data

Results flagged for a closer look

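Among 27 groups of 4 libraries with a value above 0, 5 held a library far from the other 3 by Dixon's criterion. Its chance rate of about 5% holds for continuous values and cannot be set against this count. All flags but that of TRPM7 rest on counts of 0 to 2 reads, where tied or nearly tied libraries set off the flag by construction. TRPM7 in BPH-1 replicate 2 was at 6.82 FPKM. TRPM2 in BPH-1 replicate 1 was at 0 FPKM where the other 3 libraries had 1 read each. The remaining 3 rest on 1 or 2 reads: TRPM8 in PC3 replicate 4 (0.00654 FPKM), TRPV6 in PC3 replicate 2 (0.00845 FPKM) and TRPC6 in PC3 replicate 3 (0.0106 FPKM).

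The effects of the PCa lines against BPH-1 differed from each other, by the direct test of PC3 against DU145, for TRPM4 (log2 fold change 0.73), TRPV1 (-0.48) and TRPV4 (-0.50).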

How the results depend on the processing

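Of 358 values of the tested TRP genes under alternatives, 319 kept their direction and their side of the threshold, 24 lost the call, 7 gained one and 8 turned direction. The values that turned were TRPV1 in PC3 against BPH-1 with the same summed FPKM (-0.0912), with the GC trend divided out (-0.0881), without BPH-1 replicate 3 (-0.00436) and without PC3 replicate 3 (-0.0204), over a range of -0.0204 to 0.0741 with 1 library left out; in DU145 against BPH-1, TRPC1 (0.379) and TRPM4 (-0.0797) with the GC trend divided out, and TRPC1 with the low-GC libraries left out (0.14); and TRPM7 in PC3 against DU145 without DU145 replicate 2 (0.0290, over a range of -0.369 to 0.0290). Among the list genes, ATP2B1 in PC3 against BPH-1 turned with the GC trend divided out (0.17). The cause was not tested. The number of TRP genes called in DU145 against BPH-1 was 2 with the low-GC libraries left out, and in PC3 against DU145 it was 5 with the GC trend divided out. Leaving out 1 library at a time gave 5 called in every fit of PC3 against BPH-1, 3 to 4 in DU145 against BPH-1 and 2 to 5 in PC3 against DU145, with 5 reached without DU145 replicate 3. The labels give the lines the same replicate numbers, but nothing ties same-numbered libraries together. The correlation of their deviations ran from -0.65 (replicate 4 of PC3 and DU145) to 0.51 (replicate 2 of PC3 and DU145), and most pairs lay near 0. With a replicate block, 5, 3 and 3 TRP genes were called in the 3 comparisons, and the call lost was TRPV4 in DU145 against BPH-1 (limma adjusted p = 0.0857). At this depth, a count of 0 in a library allows up to 3 reads, and counts of 1 to 3 reads lie within that limit.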
